A study of Mus musculus with 8 samples.

Results

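The Dlk1-Dio3 imprinted domain of mouse chromosome 12 carries one of the densest groups of small RNAs in the genome. Its members here are the rows of the deposited count tables that lie wholly within the part of the domain that holds the maternally expressed genes Meg3, Rian and Mirg. This gave 89 of 5518 rows, 23 typed as small nucleolar RNA (snoRNA) and 66 as microRNA (miRNA), from 109544541 to 109747960 on mm10, a span of 203.4 kb. The rule for a row uses its position and no count, but the domain was picked for description with earlier results of these data known, among them the difference between the 2 TruSeq libraries there. Of the 89 rows, 82 are annotated on the plus strand, the strand of all 3 host genes, and 7 on the minus strand.

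The domain is imprinted, so that the 2 parental copies are used differently. The maternal copy is transcribed into the long non-coding RNAs Meg3, Rian and Mirg, from which the snoRNAs and miRNAs are cut, while the paternal copy gives the protein-coding genes Dlk1, Rtl1 and Dio3. The snoRNAs belong to the C/D box type, which as a class guide ribose methylation of other RNAs, but those of this domain have no well-established target. The domain is known to differ in activity between cultures of pluripotent cells, where the maternal transcripts can be silenced.

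Small RNAs were counted in 8 libraries of 3 kinds, with 1 column of counts for each. All MEFs (mouse embryonic fibroblasts) were conditional knockouts of the telomere-capping protein TRF2 and carried Rosa26-CreERT2, a Cre recombinase that 4-hydroxytamoxifen (4OHT) activates. They gave 4 libraries by TEsR, a capture method read on a MiSeq: linkers are joined to both ends of the RNA, the products are amplified, and wanted molecules are pulled out with hybridisation probes. Which members the probes cover is not given in the sources used here. By their titles, 2 of these are induced, meaning treated with 0.6 µM 4OHT for 48 hours, and 2 are uninduced. Their columns are named MEFmmS1, MEFmmS2, MEFpmS1 and MEFpmS2; the labels do not explain mm and pm, so each column is described apart and no comparison of induced with uninduced cells was made. Mouse embryonic stem (MES) cells of the line B6G-2, labelled as not induced and cultured on no feeder layer in the presence of leukemia inhibitory factor, gave 2 TEsR libraries, MESrep1 and MESrep2. Induced MEFs of the same kind gave 2 standard TruSeq small RNA libraries from a HiSeq, known by their index as ATCACG and CGATGT. Both TruSeq samples are titled as induced, but the word control stands in the name of their table. Whether the libraries within a group were grown as separate cultures is not stated, so the p-values measure a spread that may be technical. In the MEF TEsR group that spread also holds any difference between induced and uninduced cells.

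Library totals were 2676776 to 3768668 counts for TEsR and 8442960 and 8961221 for TruSeq, and 67.8% to 83.1% of each library lay on its 2 leading rows. Marker miRNAs were used to check the labelled cell types. The 12 rows of the embryonic stem cell list (the miR-290 and miR-302 families) summed to 475.0 and 516.7 CPM, the count per 1000000 counts of the library, in MES, to 0 to 1.33 CPM in the MEF TEsR libraries and to 0 in both TruSeq libraries. The 16 rows of the fibroblast list, among them Mir21a and Mir143, summed to 5131 to 22407 CPM in the MEF TEsR libraries, to 141.1 and 148.7 in MES, and to 109.9 and 84.2 in ATCACG and CGATGT. No list of another cell type (epithelial, neural, muscle or blood miRNAs) exceeded 5.09 CPM in a MEF library. All intervals given are 95% exact intervals and, like the limit of 3 counts that a count of 0 allows, cover counting error only.

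The sequences of 8 snoRNAs are shown because the results turn on them: the 5 with the highest counts in the ATCACG library, the leading one of MES beside its closest relative in the domain, and the only one with a count in any MEF TEsR library. They are the annotated transcripts of GENCODE vM21 on mm10, 5′ to 3′, all on the plus strand; capitals mark the C box motif TGATGA where it lies in the first 15 bases and the D box motif CTGA where it lies in the last 15.
Gm23787: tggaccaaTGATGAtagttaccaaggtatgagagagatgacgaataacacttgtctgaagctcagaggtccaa
AF357341: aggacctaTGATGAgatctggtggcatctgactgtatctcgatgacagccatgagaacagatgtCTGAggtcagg
AF357428: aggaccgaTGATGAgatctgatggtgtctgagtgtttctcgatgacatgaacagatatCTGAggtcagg
DQ267100: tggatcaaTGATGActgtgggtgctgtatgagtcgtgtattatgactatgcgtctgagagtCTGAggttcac
AF357425: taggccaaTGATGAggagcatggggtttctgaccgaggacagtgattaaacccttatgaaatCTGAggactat
Gm22981: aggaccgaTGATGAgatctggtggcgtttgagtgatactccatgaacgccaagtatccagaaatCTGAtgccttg
Gm23736: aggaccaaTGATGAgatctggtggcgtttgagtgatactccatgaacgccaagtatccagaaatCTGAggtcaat
Gm26922: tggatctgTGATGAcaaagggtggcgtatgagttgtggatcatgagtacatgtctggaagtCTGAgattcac

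Of the 23 snoRNAs of the domain, 17 hold the C box motif in that window, 16 the D box motif and 12 (52.2%) both, against 294 (19.5%) of all 1507 annotated snoRNA transcripts, a set that includes other types of snoRNA. The match was made on the transcript strand only. Gm23787, with the highest count of any member, has the C box motif but no CTGA in its last 15 bases. The members are repeats of unequal likeness: Gm22981 and Gm23736 differ by 6 edits and share an unbroken run of 61 bases, whereas the closest member to Gm23787 is 63.0% identical. A pair of members have near copies elsewhere that could share reads: AF357425 is 4 edits from Gm22962 on chromosome 9 and Gm24895 is 2 edits from Gm24598 on chromosome X, and neither copy had a count in any library.

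For miRNAs, the mature sequences are shown for the hairpins with the highest miRNA counts of the domain: Mir431, which led in MEFmmS2 and MEFpmS2, and Mir540 and Mir127, which led in ATCACG. They are from RefSeq on GRCm38.p6, with the seed (bases 2 to 8) in capitals; RefSeq entries were matched for 59 of the 66 miRNA rows. A row counts reads over the whole hairpin, so the arm a read came from is not given.
mmu-miR-431-5p: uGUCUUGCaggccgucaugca
mmu-miR-431-3p: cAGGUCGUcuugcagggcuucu
mmu-miR-540-5p: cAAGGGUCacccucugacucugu
mmu-miR-540-3p: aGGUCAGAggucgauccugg
mmu-miR-127-5p: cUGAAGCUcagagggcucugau
mmu-miR-127-3p: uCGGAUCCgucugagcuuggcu

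No seed is shared among these 6 arms; among all hairpins with a count, the only shared seed was AUGUAAC, of miR-379-3p and miR-411-3p. Mir431 and Mir127 lie opposite Rtl1 on the other strand, an arrangement known for miRNAs that cleave the paternal Rtl1 mRNA.

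The domain was abundant in 1 library of 8. The ATCACG library held 5064 counts on the members, or 565.1 CPM (549.6 to 580.9), spread over 24 rows. CGATGT, the other TruSeq library of the same labelled cells, held 2 counts, or 0.237 CPM (0.0287 to 0.856). The MEF TEsR libraries held 2 counts in MEFmmS1, 13 in MEFmmS2, 10 in MEFpmS1 and 29 in MEFpmS2, which is 0.536, 3.45, 2.83 and 9.0 CPM. The MES libraries held 24 and 25 counts, or 8.62 and 9.34 CPM. In bulk RNA, fewer cells with an active domain and less RNA per cell cannot be told apart.

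The snoRNAs and the miRNAs ordered the libraries differently. On snoRNA rows, ATCACG held 4980 counts (555.7 CPM) and CGATGT 2. Both MES libraries held 21 snoRNA counts, at 7.54 and 7.85 CPM. The MEF TEsR libraries held 0, 0, 2 and 4 in the order MEFmmS1, MEFmmS2, MEFpmS1, MEFpmS2, so that MEFmmS1 and MEFmmS2 lacked every snoRNA of the domain down to 0.804 and 0.796 CPM. On miRNA rows, ATCACG held 84 counts (9.37 CPM) and CGATGT 0, which allows up to 0.355 CPM. The same 4 MEF TEsR libraries held 2, 13, 8 and 25 miRNA counts, and MES 3 and 4. The miRNA level of MEFpmS2, 7.76 CPM (5.02 to 11.5), thus lay within the counting interval of ATCACG (7.48 to 11.6), although the snoRNA levels of these libraries differed by 1.24 against 555.7 CPM. TEsR and TruSeq differ in chemistry, and these single libraries are set side by side without a test.

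The order of the libraries on miRNA rows also depended on what the counts were divided by, because miRNAs of any kind took 1.67% to 7.54% of the MEF TEsR libraries, 0.313% and 0.317% of MES, and 21.5% and 24.4% of ATCACG and CGATGT. As a share of all miRNA counts, the domain held 0.0344% and 0.0472% in MES, on 3 and 4 counts. That share was 9.45e-04%, 0.0207%, 0.00300% and 0.0156% in MEFmmS1, MEFmmS2, MEFpmS1 and MEFpmS2, and 0.00436% in ATCACG. By this measure both MES libraries lay above every MEF library, and MEFmmS2 and MEFpmS2 above ATCACG, each on few counts.

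**Figure D1:**
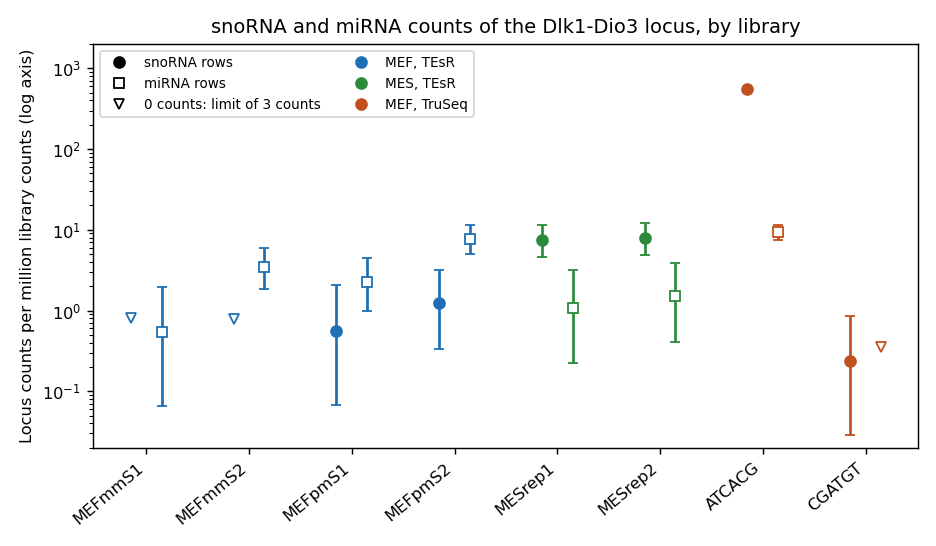
CPM on the snoRNA rows (filled circles) and miRNA rows (open squares) of the domain in each of the 8 libraries, on a log axis, with 95% exact Poisson intervals; open triangles mark libraries with 0 counts at the limit of 3 counts. ATCACG stands at 555.7 CPM for snoRNA rows, while no other library exceeds 7.85 CPM.

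Of the 89 rows, 37 had a count in any library and 52 had none. Those with a count were 14 of the 23 snoRNAs and 23 of the 66 miRNAs. Among them, 4 miRNA rows overlap another member and have the same counts in every library (mmu-mir-3544 with Mir337, mmu-mir-380 with Gm25750, mmu-mir-376a with Gm25252 and Gm24321 with mmu-mir-409), so each of the 4 repeats its partner's reads. The partners lie on opposite strands, so reads of either strand cannot be told apart here. With these counted once, the sums were 1, 13, 9 and 29 in the MEF TEsR libraries, 23 and 25 in MES, and 5058 and 2 in ATCACG and CGATGT. Neither of the 2 rows within Meg3 had a count in any library.

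**Figure D2:**
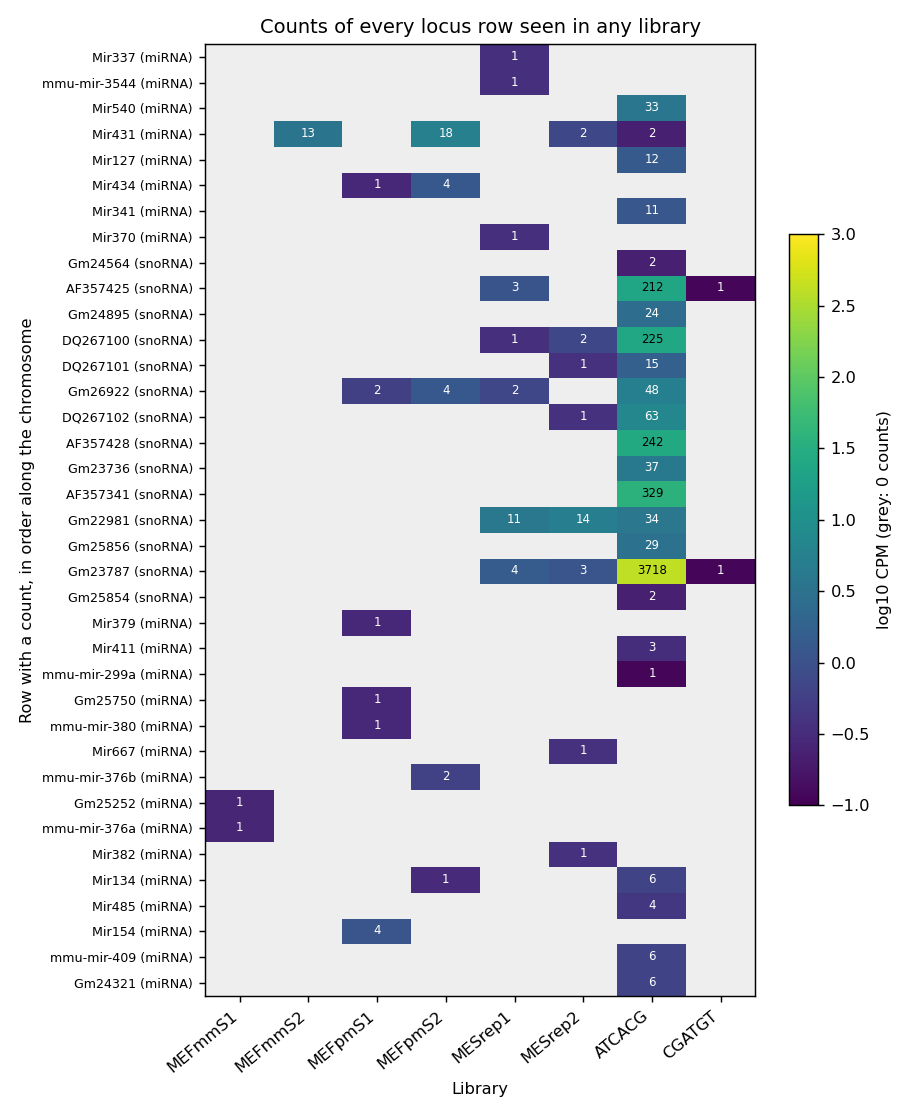
Every row of the domain with a count, in order along the chromosome (vertical axis), in each library (horizontal axis), with the count printed and the colour giving log10 CPM; grey cells have 0 counts. The ATCACG column is filled through the block of snoRNAs, the CGATGT column holds 2 single counts, and the MEF TEsR columns hold mostly miRNA counts.

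Within ATCACG, the snoRNAs fell into a block in Rian and a stronger block downstream of it. The 10 snoRNA rows between the annotated end of Rian and Mirg, in no annotated long gene, held 4391 counts, 86.7% of the domain's total. Gm23787 (chr12:109684962-109685034) alone had 3718 counts, 414.9 CPM and 74.7% (73.4% to 75.9%) of the snoRNA counts of the domain. Its neighbours AF357341 (chr12:109681519-109681593) and AF357428 (chr12:109679945-109680013) followed with 329 and 242 counts. Gm23736, Gm22981 and Gm25856 had 37, 34 and 29 counts, and Gm25854 had 2. The 17 rows within Rian held 600 counts, led by DQ267100 (chr12:109649617-109649688, an exon of at least 1 Rian transcript) with 225 and AF357425 (chr12:109636012-109636084, also exonic) with 212. DQ267102, in an intron, had 63 counts, and Gm26922, Gm24895 and DQ267101, all exonic, had 48, 24 and 15, and the intronic Gm24564 had 2. The snoRNAs named here are of like length, 69 to 75 bases, so their counts can be ranked nearly as levels per base.

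The miRNAs of ATCACG were fewer and lower. Mir540, between Meg3 and Rian, had 33 counts, Mir127 had 12 and Mir341, in an intron of Rian, 11. The 45 miRNA rows downstream of Rian, which form the large cluster that ends in Mirg, held 26 counts in all, with 6 each on Mir134 and mmu-mir-409, 4 on Mir485, 3 on Mir411 and 1 on mmu-mir-299a; Gm24321 repeats the reads of mmu-mir-409.

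**Figure D3:**
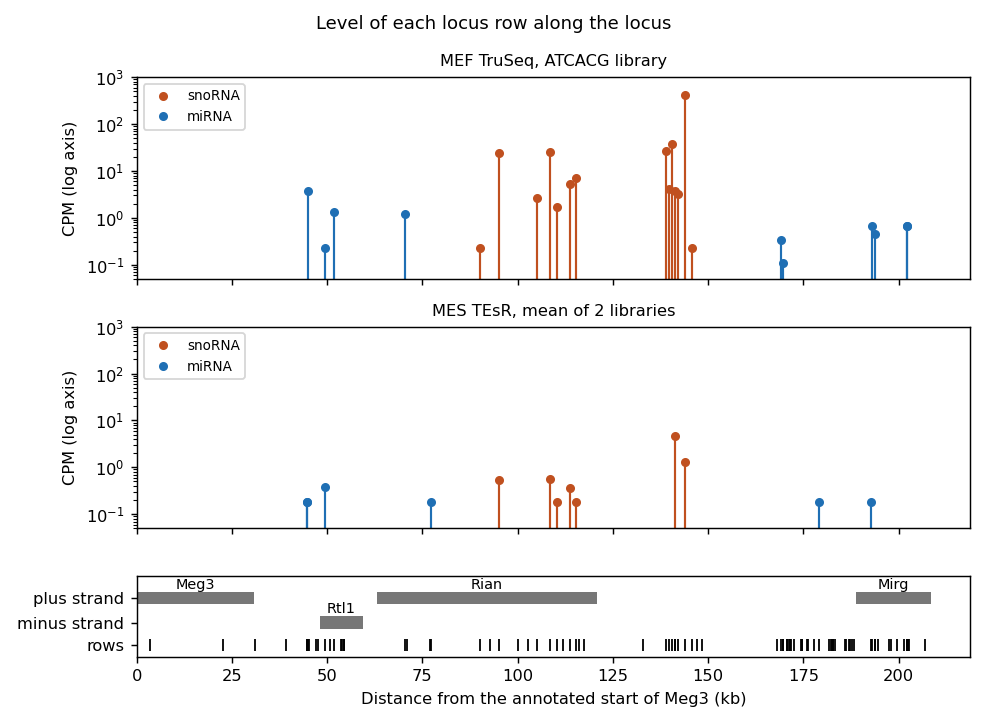
Level of each row with a count (CPM, log axis) against distance from the annotated start of Meg3 in kb, in the ATCACG library and as the mean of the 2 MES libraries, over the annotated long genes; tick marks show all 89 rows and stems only guide the eye. In both, the levels peak among the snoRNAs (orange) downstream of Rian, at Gm23787 with 414.9 CPM in ATCACG and at Gm22981 with 4.59 CPM in MES.

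The 2 TruSeq libraries were then compared row by row, with 1 library a side and therefore no test. All 15 members with at least 10 counts in either library reached them in ATCACG only, with 0 or 1 count in CGATGT, and the domain was picked knowing of this difference, so the counts that follow only describe it. With a count under 3 set to 3, 13 of the 15 had a CPM ratio above 4 in ATCACG over CGATGT. Of all 376 rows with at least 10 counts in either, 4.52% were past 4-fold higher in ATCACG and 2.93% past 4-fold lower; outside the domain 4 of 361 (1.11%) were higher. The 2 members short of the fold, Mir127 and Mir341, had 12 and 11 counts against 0, for ratios of 3.77 and 3.45 with 0 set to 3 counts.

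By size, Gm23787 had a CPM ratio of 3503 (628.3 to 138397, counting interval), on 3718 counts against 1, and AF357425 one of 199.7 (35.5 to 7926), on 212 against 1. AF357341, AF357428 and DQ267100, without a count in CGATGT, had ratios of 103.3, 76.0 and 70.7 with CGATGT set to 3 counts. These 3 ratios leave out the counting error of the ATCACG counts. For the domain's sum the ratio was 2386 (660.1 to 19704). The 4 rows outside the domain that were past 4-fold higher, named after their values were seen, were Mir199b, Mir574, Mir145a and Mir152, with 16 to 22 counts in ATCACG and 1 to 4 in CGATGT. Mir199b and Mir145a are on the fibroblast list, of which 12 rows had at least 10 counts in either library; 6 of these were at a higher CPM in ATCACG and 6 at a lower one, such as Mir31 (25 against 77 counts). The 11 rows past 4-fold lower in ATCACG, also seen before they were named, were led by Mir182 (4 against 37 counts). They included Mir183 (14 against 84 counts) and the U3 row Rnu3a (3600 against 23422). The marker lists of embryonic stem cells (12 rows), epithelium (6), neural cells (7), muscle (4) and blood (3) had 0 counts in both libraries.

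**Figure D4:**
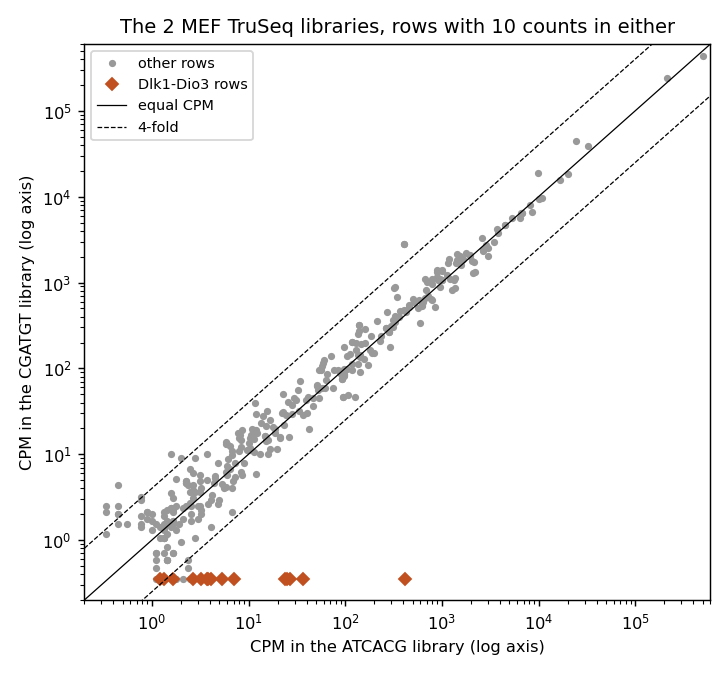
CPM of each row with at least 10 counts in either TruSeq library, ATCACG (horizontal) against CGATGT (vertical), both on log axes, with counts under 3 set to 3; the solid line marks equal CPM and the dashed lines 4-fold. The 15 rows of the domain (diamonds) lie along the floor of CGATGT, 13 of them past the 4-fold line.

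Few imprinted small RNAs elsewhere could be compared between the TruSeq libraries, since 3 of the 91 rows listed had at least 10 counts in either. Snord64, of the Prader-Willi domain on chromosome 7, had 1055 counts in ATCACG and 808 in CGATGT, and Snord107 of the same domain 92 and 94. Mir296, of the Gnas domain, had 15 and 6. None of these 3 rows was past the 4-fold limit.

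Between the cell types measured by the same method, the snoRNAs of the domain were seen in MES and nearly not in MEFs. Summed over snoRNA rows, the MEF TEsR libraries stood at 0, 0, 0.565 and 1.24 CPM and the MES libraries at 7.54 and 7.85, so the groups did not overlap. The exact two-sided permutation test of 4 against 2 libraries gave p = 0.133, the smallest this design allows. Lower levels in MEFs were common among small RNAs of any locus. Of all 273 rows tested singly by edgeR, 43.6% were called lower in MEFs than in MES and 31.5% higher. Over all 89 rows the groups overlapped, since MEFpmS2 (9.0 CPM) lay between MESrep1 (8.62) and MESrep2 (9.34), with a difference of -5.02 CPM in MEF minus MES (exact permutation p = 0.267). Counted per 1000000 counts outside the 2 leading rows, the groups did not overlap, at 2.63, 20.4, 11.9 and 42.7 in MEFmmS1, MEFmmS2, MEFpmS1 and MEFpmS2 and 45.2 and 52.9 in MES (exact permutation p = 0.133). The nearest libraries, MEFpmS2 and MESrep1, rest on 29 (19.4 to 41.6) and 24 (15.4 to 35.7) counts, so their gap is within counting error. Over miRNA rows alone the difference had the other sign, 2.22 CPM, with overlap (exact permutation p = 0.40).

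Gm22981 (chr12:109682384-109682458) led in MES, with 11 and 14 counts (3.95 and 5.23 CPM), and had 0 in every MEF TEsR library. In the MEF TruSeq library ATCACG it had 34 counts (3.79 CPM), and in CGATGT 0. By TEsR it was lower in MEFs by edgeR's quasi-likelihood test (Benjamini-Hochberg adjusted p = 6.06e-04 over 273 rows tested). Its mean CPM in MES was 5.43-fold that of the MEF TEsR libraries with each set to 3 counts. Such a ratio leaves out the counting error of the MES counts. Gm22981 passed the filter on low counts only through MES, where it is high, and it was not tested when either MES library was left out, so its call describes this row and says nothing of the domain. In all, 2 of the 89 rows passed that filter, and 43.6% of the tested rows were called lower in MEFs and 31.5% higher. With no filter, 4 of 22 members with a count were called lower in MEFs and 0 higher by edgeR, against 26.0% and 15.5% of 611 rows. Besides Gm22981 these were Gm23787, DQ267100 and AF357425. With each MEF library set to 3 counts, the same ratio was 1.51 for Gm23787, which does not bound its fold difference. For DQ267100 and AF357425 the ratio was 0.655 and 0.637, which does not place them lower in MEFs. Gm23787 had 4 and 3 counts in MES, DQ267100 1 and 2, AF357425 3 and 0 and Gm26922 2 and 0, while DQ267101 and DQ267102 each had 1 in MESrep2. AF357341 and AF357428, next after Gm23787 in ATCACG, had none in MES. The miRNA counts of MES were 1 each on Mir337 and Mir370 in MESrep1, and in MESrep2 2 on Mir431 and 1 each on Mir667 and Mir382.

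The makeup of the domain's snoRNA counts differed between MES and ATCACG in the rows that led there. Gm22981 and Gm23787 were picked because they led in MES and in ATCACG, so some difference in their shares was built in. The intervals hold counting error only, not the spread between libraries. Gm22981 held 59.5% (43.3% to 74.4%) of the 42 snoRNA counts of the 2 MES libraries and 0.683% (0.473% to 0.953%) of those in ATCACG, whereas Gm23787 held 16.7% (6.97% to 31.4%) and 74.7% (73.4% to 75.9%). Between the closely related Gm22981 and Gm23736 printed above, ATCACG had 34 and 37 counts and MES 25 and 0, so that 47.9% (35.9% to 60.1%) and 100% (86.3% to 100%) lay on Gm22981. Cells, method and possibly read filtering differ between these libraries, and their parts in this difference cannot be told apart. These intervals compare libraries, not conditions.

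Over the MEF TEsR libraries pooled, Mir431 and Gm26922 held most of the little that was seen. Neither had a count in MEFmmS1, and Mir154 led in MEFpmS1 with 4 of 10 counts. Mir431 (chr12:109590447-109590537) had 13 counts in MEFmmS2 and 18 in MEFpmS2 but 0 in MEFmmS1 and 0 in MEFpmS1; MES had 0 and 2, ATCACG 2 and CGATGT 0. The levels of 3.45 and 5.59 CPM are thus confined, among the MEF TEsR libraries, to the columns numbered S2, and those numbered S1 allow up to 0.804 and 0.848 CPM. Gm26922 (chr12:109654627-109654698), the only snoRNA of the domain with a count, had 2 in MEFpmS1 and 4 in MEFpmS2 and 0 in both mm columns. Mir434, which like Mir431 lies opposite Rtl1, had 1 and 4 counts in MEFpmS1 and MEFpmS2, and Mir154, in an intron of Mirg, 4 in MEFpmS1. The other counts in these libraries were 2 on mmu-mir-376b and 1 on Mir134 in MEFpmS2, 1 on Mir379 and 1 on Gm25750 in MEFpmS1, and 1 on Gm25252 in MEFmmS1.

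Mir431 was the only member to pass the filter in both fits. Its difference between MEFs and MES by TEsR did not pass the test, where edgeR gave a log2 fold change of 1.91 ± 2.00 (SE) with an adjusted p of 0.391. That value was 1.13 without MESrep1 and 6.10 without MESrep2, and passed the test in neither fit. Between MEFs by TEsR and MEFs by TruSeq it was called higher by TEsR, at 4.77 ± 1.83 (SE; edgeR adjusted p = 0.0282, n = 4 and 2), where 32.4% of 352 tested rows were called higher and 55.7% lower. By title, 2 of the 4 TEsR libraries are uninduced and both TruSeq libraries are induced. Method, instrument and induction therefore differ together in this comparison and cannot be told apart. Mir431 passed the filter through the 2 TEsR libraries where it is high, while the members seen mainly in ATCACG were filtered out, so this single call does not describe the domain. The groups overlapped, since 2 of the 4 TEsR libraries had 0. Without ATCACG the log2 fold change was 7.09 (edgeR adjusted p = 0.0674) and without CGATGT 3.74 (edgeR adjusted p = 0.232), so the call was lost with 1 TruSeq library while the direction stayed. With no filter, 2 of 32 members with a count, Mir431 and Mir434, were called higher by TEsR and 8 lower, against 20.5% and 30.4% of 809 rows. The 8 rest on ATCACG alone, since each had 0 or 1 count in CGATGT, so they do not describe TruSeq as a method. Gm23787, AF357341, AF357428 and DQ267100, with higher counts still in ATCACG, were not called.

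How far a low TEsR count reads as a low level was limited, because many other snoRNAs that TruSeq counted well were near 0 by TEsR in MEFs. Among snoRNA rows outside the domain with 500 to 5000 counts in both TruSeq libraries, 12 of 58 (20.7%) had at most 3 counts in each MEF TEsR library, and among those with 200 to 500 counts 11 of 18 (61.1%). With 50 to 200 counts it was 24 of 34 (70.6%), and with 10 to 50 counts 24 of 27 (88.9%). Gm23787 falls in the first range by its ATCACG count, and AF357341, AF357428, DQ267100 and AF357425 in the second. DQ267102 falls in the third, and the other snoRNA members with at least 10 counts, Gm22981 among them, in the last. Of miRNA rows outside the domain with 10 to 50 counts in both TruSeq libraries, 8 of 30 (26.7%) had at most 3 in each. ATCACG and CGATGT were both made by TruSeq, with totals of 8961221 and 8442960 counts. The cause of their difference on the domain was not tested.

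Small RNAs of imprinted and related loci elsewhere were compared between MEFs and MES by TEsR. Of 5 tested rows, 3 were called lower and 1 higher, where 43.6% and 31.5% of all 273 rows were. The median log2 fold change of the 5 was -2.81, against -0.45 over all 273 rows. Snord64 had 4, 15, 3 and 2 counts in the MEF TEsR libraries and 256 and 245 in MES (log2 fold change -6.48 ± 0.68, SE; edgeR adjusted p = 1.24e-05). Snord107 (-2.81 ± 0.46, SE) and Mir467c (-3.08 ± 0.84, SE) were also called lower and Mir669e higher (3.95 ± 1.02, SE). The last 2 belong to a multicopy miRNA family of the imprinted gene Sfmbt2, so reads may be split among copies. Mir335, in Mest, had -0.20 ± 1.42 (SE; edgeR adjusted p = 0.894).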

How the data were processed

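The deposited tables hold raw counts, whole numbers that the authors made for 5518 annotated small RNAs and did not normalise, per the file headers; both tables list the same rows. The submitters' processing notes name BWA 0.7.12, bedtools 2.25.0, SAMtools 1.2.1 and cutadapt, and the build mm10, without roles; how strand and reads with several matches were handled is not given. The tag q10, unexplained, stands in the TEsR column names only. Columns were assigned by name; those of MEFs name a group and no sample, and all 8 were used.

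Identifiers and coordinates of 5445 rows matched GENCODE vM21, which gave type, strand and host gene. CPM divide by the library total. Rows were fitted with edgeR (version 4.0.16, R 4.3.3): quasi-likelihood test, TMM scaling, the filterByExpr filter at 10 counts, Benjamini-Hochberg adjustment over all tested rows and a threshold of 0.05. The fitting script was tested on simulated data. MEFs were compared with MES by TEsR, and TEsR with TruSeq in MEFs, each with 4 against 2 libraries. Alternatives were DESeq2 (version 1.42.0), library-size scaling, no filter, overlapping rows counted once, each library left out, other denominators and 30 counts as the minimum. Every member with a count is named with its counts. Outside the domain, marker and imprinted lists are described, with at most 6 rows named by level. Further rows there were named for their ratio between the TruSeq libraries or as near copies in sequence. The members and lists were chosen with earlier results of these data known.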

Additional observations from a re-analysis of the deposited data

Results flagged for a closer look

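In the 4 MEF TEsR libraries, 3 of 11 sums and levels checked had 1 library far from the others, where chance flags about 1 in 20 groups of continuous values. That rate does not apply to 2 of the 3, in which the other 3 libraries were at 0 and any count would stand apart. The embryonic stem cell markers summed to 1.33 CPM in MEFmmS2, on 5 counts, and to 0 in the other MEF TEsR libraries. The epithelial markers summed to 5.09 CPM in MEFmmS1, against 1.86 to 2.26 in the others. The neural markers had 1 count, 0.283 CPM, in MEFpmS1 and 0 in the others. No sum over the rows of the Dlk1-Dio3 domain was among them.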

How the results depend on the processing

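By TEsR, 86 rows were higher and 119 lower in MEFs than in MES, and by method 114 were higher and 196 lower by TEsR; leaving out each library gave 59 to 97, 103 to 121, 96 to 116 and 187 to 202. The domain's CPM difference (MEF minus MES, -5.02) ranged from -6.71 to -3.89 without single libraries. The cause of its turn to 2.22 with miRNA rows alone, a choice made after seeing the data like the snoRNA sum and duplicates counted once, was not tested. Gm22981 was called lower in every fit that tested it (edgeR and DESeq2 adjusted p from 2.09e-07 to 0.00207). It had 0 counts in every MEF TEsR library, so leaving out any of these could change little. Without either MES library it was not tested, so these fits do not show that the call is robust. Mir431 (TEsR against TruSeq) also missed the threshold with duplicates counted once, at a log2 fold change of 4.90 against 4.77 (adjusted p = 0.0752). With a minimum of 30 counts in the TruSeq pair, 0 of 281 rows outside the domain were past 4-fold higher in ATCACG, since the 4 such rows had fewer counts, and 5 were past 4-fold lower. The columns share only the numbers 1 and 2; with the replicate block, 77 rows were higher and 117 lower in MEFs, and same-numbered deviations had a correlation of -0.084 across 143 rows. With library size only, the median log2 fold change moved from -0.45 to 0.38 over all rows in MEF minus MES, and from -2.42 to -3.02 in TEsR minus TruSeq. Outside ATCACG, only Gm22981 and Mir431 reached 10 counts in any library, so most members were too thinly counted there to be compared singly.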
